A study of Mus musculus with 5 samples.

Results

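The comparison described here took 4 of the 5 arrays of the series, and set CD8 T cells cultured for 48 h with IL-21 against cells cultured for 48 h without it. The members were found by array title, with 2 arrays in each group numbered replicate 1 and replicate 2, so that each number gave 1 pair of arrays that differed in IL-21. The cells were CD44lo CD8+ T cells, negatively enriched from lymph nodes of C57BL/6 OT-1 TCR transgenic mice aged 6 to 8 weeks. OT-1 cells carry a transgenic receptor for an ovalbumin peptide presented by H-2Kb, and the CD44lo fraction consists of cells that have not yet responded to antigen. Both groups were stimulated on latex microspheres coated with the peptide bound to H-2Kb and with B7-1, which engages CD28 on T cells, and both received human rIL-2. Murine IL-21 was the only labelled difference between the groups, at a dose not given in the sources used here. A further array held cells cultured with IL-21 for 72 h, a time with no array without IL-21 here.

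All arrays are labelled as biological replicates, without a statement that these were separate mice or cultures, so p-values measure only the spread between these samples. The labels do not state what a replicate number stands for either, and the differences within same-numbered arrays are given as a description. In bulk RNA a lower signal from fewer cells of a type and from less RNA per cell cannot be told apart.

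IL-21 is a cytokine of activated CD4 T cells that binds a receptor made of its own chain and the common gamma chain shared with the receptors for IL-2, IL-7 and IL-15. The receptor signals through the kinases JAK1 and JAK3, mainly to the transcription factor STAT3. In CD8 T cells, antigen and B7-1 start division, and a cytokine such as IL-21 acts as a further signal that promotes cytotoxic function and memory. Granzyme B, a protease delivered into target cells, is a widely used readout of that function, and CD8 is the coreceptor that binds the MHC molecule beside the T cell receptor.

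The markers of the labelled cell type were present on all 4 arrays. Normalised signals, in arbitrary units of the array after scaling, were 1092 to 1445 for Cd3e, a chain of the T cell receptor complex, 401 to 753 for Cd8a and 536 to 1017 for Cd8b1. Cd4, which marks the other main T cell lineage, had signals of 9.39 to 15.9. Before scaling, the trimmed mean signal was 75.4 and 65.3 on the arrays without IL-21 and 105 and 106 on those with it, and 96.0% of probe sets were higher with IL-21. The 9 probe sets for labelled control transcripts added at hybridisation were also higher with IL-21 in both pairs, by a median of 1.65 times in pair 1 and 1.58 times in pair 2. All differences below were taken after quantile normalisation and are thus relative to the bulk of probe sets, and whether total RNA per cell differed was not tested.

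Across genes, the IL-21 differences were no larger than the differences between replicates. Of 7453 probe sets tested with limma, 0 (0%) passed an adjusted p of 0.05, the smallest adjusted p was 0.465, and 327 (4.39%) had an unadjusted p under 0.05, of which 190 (2.55%) were higher and 137 (1.84%) lower with IL-21. The log2 difference between IL-21 and none had a standard deviation over probe sets of 0.43 in pair 1 and 0.45 in pair 2. Replicate 2 minus replicate 1 had one of 0.50 without IL-21 and 0.52 with it. A difference of 2-fold or more was measured for 268 probe sets in pair 1 and 297 in pair 2, against 400 and 414 between the replicates. No gene named below passed on the adjusted p of this limma fit, which has no term for the replicate number, and the words higher and lower describe measured values.

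The pairs had the same direction for part of the genes. Over all probe sets, 2047 (27.5%) were higher with IL-21 in both pairs, 2247 (30.1%) were lower in both and 3159 (42.4%) had mixed signs. Of 5610 named genes, each read from 1 probe set, the brightest on average, 1513 (27%) were higher in both pairs, 1744 (31.1%) were lower in both and 2353 (41.9%) had mixed signs. At 2-fold or more in both pairs, 26 probe sets were higher (0.349%), 9 were lower (0.121%) and 24 had opposite signs in the pairs (0.322%). The correlation between the pair differences over all probe sets was 0.13. It depended on signal. When the probe sets were split into 3 groups of nearly equal size by mean signal, the correlation was 0.05 in the dimmest group, 0.24 in the middle group and 0.39 in the brightest group. The pair differences share no array, and all probe sets of an array share its hybridisation and scaling. All 24 probe sets with opposite 2-fold differences lay in the dimmest group, together with 19 of the 26 higher and 8 of the 9 lower ones. These 3 classes had median signals of 15.98, 21.8 and 20.5, against 72.3 over all probe sets tested. For the genes described first, a mean signal above that median was therefore required.

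**Figure D1:**
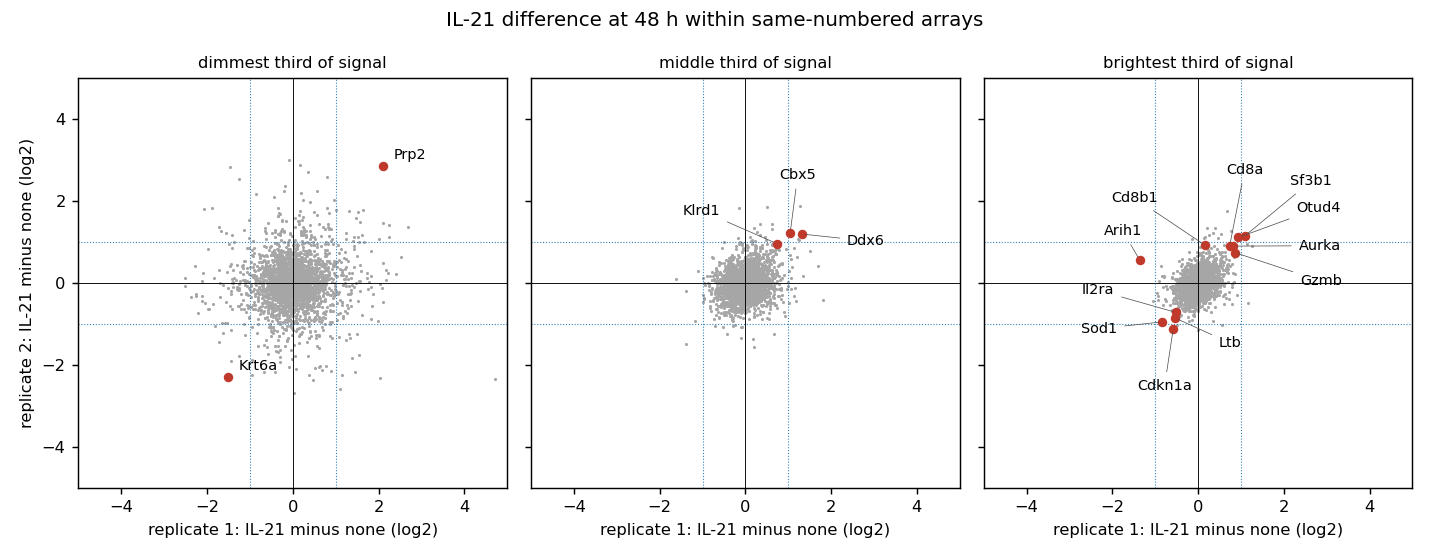
Difference between IL-21 and none in replicate 1 (x axis, log2) against that in replicate 2 (y axis, log2), 1 point for each of 7453 probe sets, in 3 groups of mean signal; dotted lines mark 2-fold and red points carry gene names. The cloud narrows from the dimmest to the brightest group, and the named bright genes lie outside it on the same side of 0 in both pairs, with Arih1 on opposite sides.

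Cd8a, on chromosome 6, encodes the alpha chain of CD8. Its normalised signal was 414 and 401 on the replicate 1 and 2 arrays without IL-21 and 690 and 753 on those with IL-21. Both arrays with IL-21 were above both without it, and the replicates of a group lay close together. The log2 difference was 0.74 in pair 1 and 0.91 in pair 2, and the group difference was 0.82 with a standard error of 0.12 (limma, adjusted p = 0.58). Cd8b1, which encodes the beta chain, gave 883 and 536 without IL-21 and 989 and 1017 with it. The groups did not overlap, but the pairs were unequal, with log2 differences of 0.16 in pair 1 and 0.92 in pair 2. The lone low array was replicate 2 without IL-21.

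Gzmb, on chromosome 14, encodes granzyme B. Its signal was 1345 and 3222 without IL-21 and 2438 and 5405 with it. Within each pair the array with IL-21 was higher, by 0.86 in pair 1 and 0.75 in pair 2 on the log2 scale. The groups overlapped, because replicate 2 without IL-21 exceeded replicate 1 with IL-21. Between the arrays of a group, replicate 2 was higher by 1.26 (no IL-21) and 1.15 (IL-21), so the replicate difference was larger than the IL-21 difference. The group difference of 0.80 had a standard error of 0.50 (limma, adjusted p = 0.97), in a fit with no term for the replicate number. With 1 array left out it ran from 0.17 to 1.43. That range takes in part of the replicate difference, since the groups then hold unequal replicate numbers. Klrd1 encodes CD94, the partner of NKG2 receptors on NK cells and activated CD8 T cells, and had the same form. It gave 28.9 and 133 without IL-21 and 47.9 and 259 with it, with pair differences of 0.73 and 0.97 and replicate differences of 2.20 and 2.44.

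**Figure D2:**
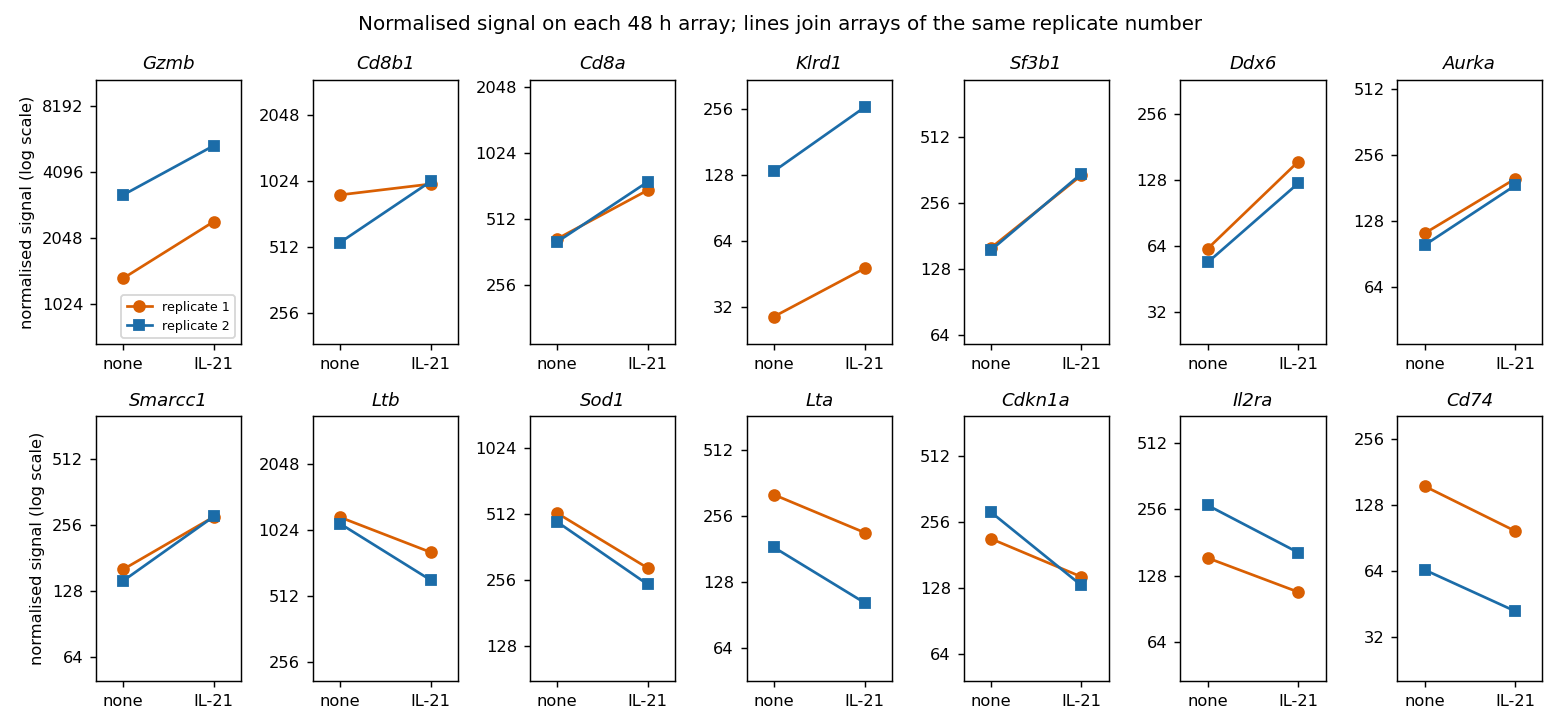
Normalised signal (log2-spaced axis, each panel spanning 16-fold) of 14 genes on the 4 arrays at 48 h, with lines joining the arrays of the same replicate number. Lines of Cd8a, Sf3b1, Aurka, Smarcc1 and Sod1 nearly coincide, while those of Gzmb, Klrd1, Lta, Il2ra and Cd74 run in parallel but far apart.

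The stretch just upstream of the start of 4 of these genes was read to show where the sites of factors that act in T cells would lie. The windows are 250 bases long, from RefSeq on GRCm38.p6, for Gzmb at chr14:56262335-56262584 on the minus strand, Cd8a at chr6:71373177-71373426 on the plus strand, Ltb at chr17:35194257-35194506 on the plus strand and Lta at chr17:35205352-35205601 on the minus strand. Ltb and Lta encode the lymphotoxins, which were lower with IL-21 in both pairs, as given further on. Capitals mark matches on either strand to TTCNNNGAA, the motif of STAT proteins, to TGANTCA, the motif of AP-1, and to TGTGGT, the motif of RUNX factors.
Gzmb: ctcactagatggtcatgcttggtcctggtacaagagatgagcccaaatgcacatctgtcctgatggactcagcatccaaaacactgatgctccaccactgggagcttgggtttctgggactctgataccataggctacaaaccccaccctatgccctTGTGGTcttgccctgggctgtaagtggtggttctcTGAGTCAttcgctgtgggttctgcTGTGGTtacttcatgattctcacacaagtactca
Cd8a: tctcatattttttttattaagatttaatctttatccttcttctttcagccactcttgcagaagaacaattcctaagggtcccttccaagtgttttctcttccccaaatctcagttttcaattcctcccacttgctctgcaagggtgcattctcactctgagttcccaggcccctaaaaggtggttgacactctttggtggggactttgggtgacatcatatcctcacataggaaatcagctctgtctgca
Ltb: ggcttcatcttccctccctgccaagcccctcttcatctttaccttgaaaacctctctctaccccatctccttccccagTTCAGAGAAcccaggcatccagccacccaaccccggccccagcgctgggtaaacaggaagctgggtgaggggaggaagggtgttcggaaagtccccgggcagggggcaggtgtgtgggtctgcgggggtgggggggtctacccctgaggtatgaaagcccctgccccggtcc
Lta: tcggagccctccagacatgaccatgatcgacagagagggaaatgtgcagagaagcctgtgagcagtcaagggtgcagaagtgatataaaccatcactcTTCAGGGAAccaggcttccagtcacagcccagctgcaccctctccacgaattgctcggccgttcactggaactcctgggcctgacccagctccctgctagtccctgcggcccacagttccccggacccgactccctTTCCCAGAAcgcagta
The Gzmb window held 1 AP-1 match, TGAGTCA, and 2 RUNX matches. The Cd8a window held none of these letters. The Ltb window held 1 STAT match, TTCAGAGAA, and the Lta window held 2, TTCAGGGAA and TTCCCAGAA. Of the 15 genes leading on the higher side, 12 were in the promoter table with 13 windows, and 0 of these held the STAT motif. Of the 15 leading on the lower side, 12 were in it with 16 windows, and 3 held it (Agpat1, Ltb and Lta). The AP-1 motif was held by 1 of the 13 windows on the higher side and 0 of the 16 on the lower side. The RUNX motif was held by 2 of the 13 and 2 of the 16. Over the 5854 windows of the genes tested, 5.84% held the STAT motif, 4.72% the AP-1 motif and 11.2% the RUNX motif. A match is a description of the letters, and binding was not measured.

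The 15 genes above the signal limit that were highest in both pairs, ranked by the smaller pair difference, were Ddx6, Sf3b1, Cbx5, Otud4, Aurka, Smarcc1, Atp6v0e2, Gzmb, Cd8a, Klrd1, Naa15, Pbrm1, Immt, Med1 and Ago2. They were chosen for these differences, so the differences are a description. The pair 1 differences ran from 0.68 to 1.32 and the pair 2 differences from 0.66 to 1.27. The groups did not overlap for 13 of them, where 15.9% of all probe sets did not overlap on the higher side. A choice by pair differences on the same arrays favours groups that lie apart, so the 13 cannot be read as a result. That share also takes in dim probe sets, which these 15 leave out. Gzmb and Klrd1 were the 2 that overlapped. All 15 were also higher in both pairs with arrays centred on their medians or left unscaled. This follows largely from how they were chosen. The median probe set then stood at -0.066 and 0.13 in the pairs with centred arrays, and at 0.48 and 0.64 unscaled.

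Several of these genes act on RNA. Ddx6 encodes a helicase of processing bodies that takes part in mRNA decapping and storage. Its signal was 62.3 and 54.0 without IL-21 and 155 and 124 with it. The pair differences were 1.32 and 1.20, and both of its other probe sets were also higher in both pairs, by 1.51 and 0.79 and by 0.40 and 0.54. Ago2, the slicer of the RNA-induced silencing complex, gave 256 and 333 without IL-21 and 469 and 527 with it. Sf3b1, a core protein of the U2 snRNP in the spliceosome, gave 159 and 155 without IL-21 and 341 and 347 with it. The replicates of Sf3b1 nearly coincided in each group, and its group difference was 1.13 with a standard error of 0.14 (limma, adjusted p = 0.58). A second Sf3b1 probe set went the other way, by -0.22 in pair 1 and -0.58 in pair 2, so the direction for the gene rests on which probe set is read.

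Others act on chromatin and transcription. Smarcc1, a core subunit of the BAF remodelling complex, gave 161 and 143 without IL-21 and 279 and 280 with it. Pbrm1, a subunit of the related PBAF complex, had pair differences of 0.69 and 0.78, but 2 of its 3 other probe sets had mixed signs and the other was lower in both pairs. Cbx5 encodes HP1 alpha, which binds methylated histone H3 in heterochromatin. It gave 54.7 and 55.0 without IL-21 and 113 and 129 with it, and a second probe set was also higher, by 0.11 and 0.41. Med1 is a subunit of the Mediator complex and had pair differences of 1.05 and 0.68.

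The remaining genes on the higher side have separate roles. Aurka encodes the mitotic kinase Aurora A, and gave 112 and 99.4 without IL-21 and 199 and 186 with it. Otud4, a deubiquitinase, gave 259 and 292 without IL-21 and 498 and 633 with it, while a dim Otud4 probe set had mixed signs, -0.15 and 0.12. Atp6v0e2, a subunit of the vacuolar proton pump, had pair differences of 0.77 and 1.27. Naa15, the auxiliary subunit of the NatA acetyltransferase, had 0.71 in both pairs. Its brightest probe set was lower in both, by -0.18 and -0.02, and the remaining one was higher by 0.12 and 0.30. Immt, a protein of mitochondrial cristae junctions, had 0.68 and 0.70, and its other, dim probe set had mixed signs. Of the 7 genes on this side with another tested probe set, 2 had every probe set higher in both pairs, Ddx6 and Cbx5.

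On the lower side the 15 leading genes by the same rule were Sod1, Agpat1, Anp32a, Cd74, Wipf1, Acp1, Cdkn1a, Lta, Prrg2, Ilf2, Ltb, Paip2, Sat1, Arglu1 and Il2ra. The pair 1 differences ran from -0.83 to -0.52 and the pair 2 differences from -1.11 to -0.53. For 10 genes the groups did not overlap, where 17.9% of all probe sets did not overlap on the lower side. The choice favours groups that lie apart here too. Anp32a, Cd74, Lta, Prrg2 and Il2ra overlapped, and each of these 5 differed more between replicates than between treatments. All 15 were lower in both pairs relative to the median probe set under each scaling, which follows largely from how they were chosen. With unscaled arrays only 11 were lower outright in both. Of the 4 genes on this side with another tested probe set, 2 had every probe set lower in both pairs, Anp32a and Cdkn1a. Acp1, a phosphatase, was read from a probe set with differences of -0.60 and -0.67, but another was higher in both pairs, by 0.34 and 0.15, and its brightest had mixed signs, 0.06 and -0.27.

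Sod1, on chromosome 16, encodes the cytosolic copper and zinc superoxide dismutase. Its signal was 518 and 473 without IL-21 and 291 and 245 with it. Both arrays with IL-21 were below both without it, with pair differences of -0.83 and -0.95 and a group difference of -0.89 with a standard error of 0.15 (limma, adjusted p = 0.58). Sod2, the mitochondrial form, was looked up after its values were seen and differed by -0.01 and 0.07. Cdkn1a encodes p21, an inhibitor of cyclin-dependent kinases. It gave 215 and 284 without IL-21 and 144 and 131 with it. The groups were apart and the pair differences were -0.58 and -1.11, and its second probe set was also lower in both pairs, by -0.56 and -0.36.

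The lymphotoxins are cytokines of the TNF family made by activated lymphocytes. Ltb, which anchors the membrane form, gave 1174 and 1097 without IL-21 and 813 and 607 with it, without overlap. Lta, the secreted form, gave 320 and 184 without IL-21 and 215 and 103 with it. Its pair differences were -0.57 and -0.84, and the groups overlapped because replicate 2 was lower than replicate 1 in both. A second, dim Lta probe set had mixed signs, 1.15 and -0.54. Il2ra encodes CD25, the alpha chain of the high-affinity receptor for IL-2, which was present in all cultures. It gave 154 and 267 without IL-21 and 108 and 163 with it. Within each pair it was lower with IL-21, by -0.52 and -0.72, and replicate 2 was the higher array in both groups.

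Among the other genes on the lower side, Cd74 encodes the invariant chain of MHC class II and is abundant in B cells and dendritic cells. It gave 156 and 64.8 without IL-21 and 97.3 and 42.0 with it. Wipf1, which stabilises the actin regulator WASP, gave 353 and 316 without IL-21 and 233 and 200 with it. Sat1, which acetylates polyamines for export or breakdown, had pair differences of -0.82 and -0.53. Ilf2 had a difference of -0.55 in both pairs. Agpat1, an acyltransferase of phospholipid synthesis, had -0.70 and -0.78, and Paip2, a repressor of poly(A)-binding protein, had -0.65 and -0.53.

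Larger differences came from dim probe sets. Without the limit on signal, Prp2 led, with 15.8 and 9.90 without IL-21 and 67.8 and 71.6 with it. Its pair differences were 2.10 and 2.85, the standard error of the group difference was 0.34, and its second probe set was also higher, by 0.26 and 1.21. Tmem129, a ubiquitin ligase of the endoplasmic reticulum, gave 20.9 and 17.7 without IL-21 and 64.9 and 60.8 with it, but a brighter second probe set had mixed signs, -0.45 and 0.23. Lbp, Hspa1l and Xrn1 completed the 5 on the higher side. The 5 on the lower side were Krt6a, Dlgap4, Atp7b, Cradd and Znrf4. Krt6a, a keratin of epithelia, gave 31.2 and 50.8 without IL-21 and 10.9 and 10.3 with it, while its other probe set was higher in both pairs, by 0.82 and 0.30.

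Some bright genes had opposite signs in the pairs, which shows what a single pair would have given. Arih1, a ubiquitin ligase, gave 396 and 175 without IL-21 and 154 and 258 with it, a difference of -1.36 in pair 1 and 0.56 in pair 2. A dimmer Arih1 probe set differed by only -0.01 and -0.04. Cse1l, the exporter that returns importin alpha to the cytosol, gave 110 and 226 without IL-21 and 164 and 112 with it. Its differences were 0.57 and -1.01. Pdha1, a subunit of pyruvate dehydrogenase, stood at 458 and 464 without IL-21 and at 787 and 323 with it, so that its arrays without IL-21 were nearly equal and those with IL-21 lay on either side. The other genes of this kind by the same rule were Atg4b, H2-T18 and Sft2d1, higher in pair 1, and Trip13, Tgif2, Actn1 and Sfn, higher in pair 2. The brightest Actn1 probe set was lower in both pairs, by -0.26 and -0.22.

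The genes of the IL-21 pathway itself showed no common direction. Of 17 measured genes on a list of known IL-21 or STAT3 targets, 4 were higher in both pairs, 5 were lower in both and 8 had mixed signs, with median pair differences of -0.04 and 0.05 against -0.02 and -0.01 over all genes tested. The list and all others below were drawn up from general knowledge, with earlier results of these data known. Over all genes tested, 27% were higher in both pairs and 31.1% lower in both. List members needed only to pass the filter, so some had a mean signal below the median of 72.3. Among these dim genes were Nfil3, Socs3, Jak2, Ifngr1, Ifnar2, Irgm1, Pfkfb3, Tnfaip3, Bad, Trib3, Ddit3, Klrk1 and Hnrnpu. Batf, an AP-1 family factor needed for effector differentiation, gave 75.8 and 155 without IL-21 and 137 and 182 with it. Pim1, a kinase gene induced by STAT factors, had 576 and 509 without IL-21 and 679 and 619 with it. The groups of Pim1 were apart but close, with pair differences of 0.24 and 0.28. A dimmer Pim1 probe set had mixed signs, -0.02 and 0.22. Socs3, the feedback inhibitor of STAT3 signalling, gave 26.8 and 88.3 without IL-21 and 26.1 and 56.2 with it, and the higher array was replicate 2 in both groups. Stat3 gave 336 and 448 without IL-21 and 302 and 385 with it. Nfil3, a transcription factor gene, was lower by -0.30 and -0.93. Myc differed in sign between pairs, 0.41 and -0.17. Maf, Prdm1, Bcl6 and Il10 lay below the signal filter.

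Cytokine receptor and JAK-STAT genes leaned to the lower side. Of 28 measured, 15 were lower in both pairs and 6 higher in both, against 31.1% and 27% of all genes tested, and the medians were -0.11 and -0.21. With arrays centred or unscaled, 13 were lower in both pairs relative to the median probe set. None of the 28 had an unadjusted limma p under 0.05. The kinases that couple to cytokine receptors were near the list's median or below, with Jak1 at -0.22 and -0.20, Jak3 at -0.09 and -0.14 and Jak2 at -0.62 and -0.31. Among the STAT genes, Stat4 stood at -0.30 and -0.42 and Stat6 at -0.33 and -0.28. Ifngr1, a chain of the interferon gamma receptor, differed by -0.69 and -0.29, while Ifnar2, a chain of the type I interferon receptor, differed by 0.37 and 0.80. A dimmer Ifnar2 probe set had mixed signs, 2.03 and -0.03. Il7r, the receptor chain for IL-7, was higher in both pairs, by 0.64 and 0.22. Jak1, Jak2, Jak3, Stat4, Stat6 and Il7r are members of the list, and those outside the rule for named genes were chosen after their values were seen.

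Granule and cytotoxic genes differed more between replicates than with IL-21. Of 10 measured, 4 were higher with IL-21 in both pairs, 1 was lower in both and 5 had mixed signs, with medians of 0.25 and 0.06. Replicate 2 exceeded replicate 1 by a median of 0.68 without IL-21 and 0.46 with it. The summed signal of the 10 genes was 2938 and 5300 without IL-21 and 4055 and 7558 with it, most of it from Gzmb. Prf1 encodes perforin, the pore through which granzymes enter the target. It gave 46.6 and 136 without IL-21 and 43.7 and 150 with it, so that it followed the replicate number and not IL-21. Srgn, the proteoglycan that packs granules, had pair differences of 0.55 and 0.07. Serpinb9, the inhibitor that protects cells from their own granzyme B, had -0.14 and -0.41. Gzma, Gzmk and Fasl lay below the signal filter.

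Effector cytokine genes ran the other way between replicates. Of 11 measured, 3 were higher with IL-21 in both pairs, 6 were lower in both and 2 had mixed signs, with medians of -0.08 and -0.20. Replicate 2 was lower than replicate 1 by a median of -0.72 without IL-21 and -0.73 with it. Il3, which encodes a growth factor for blood cell precursors, gave 37.9 and 47.8 without IL-21 and 18.5 and 31.5 with it. Its pair differences were -1.04 and -0.60. Xcl1, a chemokine gene that attracts cross-presenting dendritic cells and was chosen after its values were seen, gave 202 and 88.3 without IL-21 and 188 and 61.2 with it. Ifng, Il2 and Csf2 lay below the signal filter.

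Interferon-stimulated genes showed the same split. Of 21 measured, 6 were higher with IL-21 in both pairs and 7 were lower in both, and the medians had opposite signs, -0.06 and 0.16. Replicate 2 was lower than replicate 1 by a median of -0.57 without IL-21 and -0.44 with it. Isg15, a ubiquitin-like protein gene, gave 117 and 20.3 without IL-21 and 95.1 and 5.32 with it. Iigp1, an interferon-inducible GTPase gene chosen after its values were seen, gave 148 and 15.9 without IL-21 and 136 and 22.7 with it. Both followed the replicate number. Irgm1, another such GTPase, was dim and was higher with IL-21 in both pairs, by 0.78 and 0.46. Over all probe sets, 70 were 2-fold or more higher in replicate 2 in both treatments, 40 were higher in replicate 1 in both and 26 had opposite signs.

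**Figure D3:**
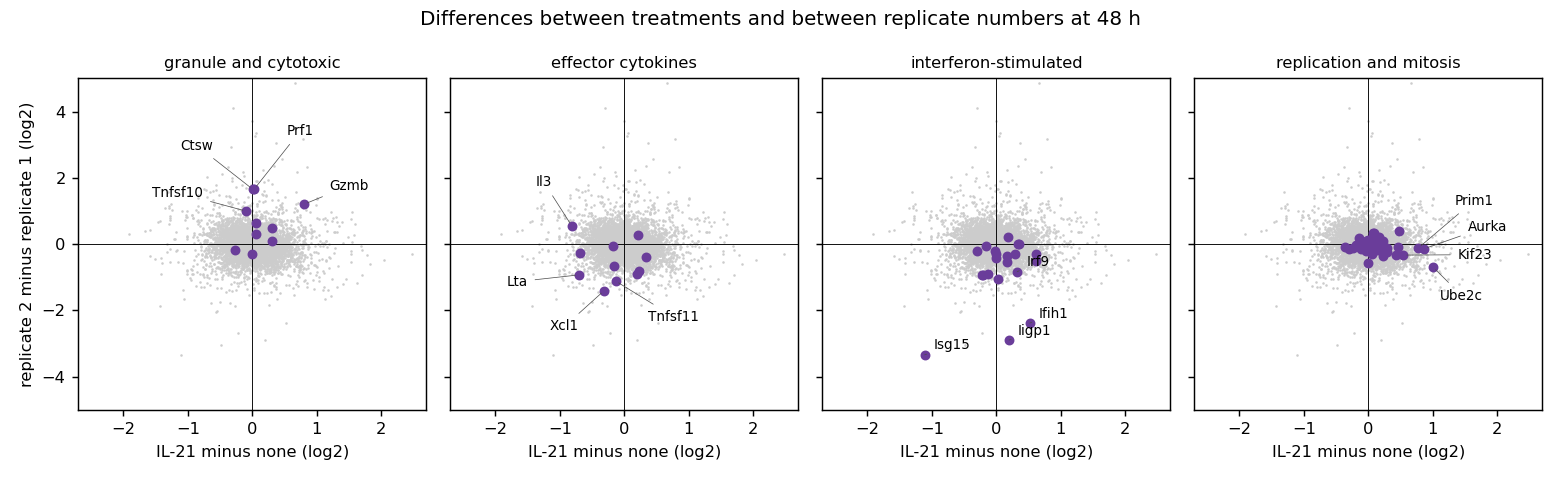
Group difference between IL-21 and none (x axis, log2) against the mean difference between replicate 2 and replicate 1 (y axis, log2) at 48 h, with all 7453 probe sets in grey and the measured genes of 4 lists in purple. Cytotoxic genes spread upward, cytokine and interferon-stimulated genes spread downward, and replication and mitosis genes spread to the right, with Aurka, Ube2c, Prim1 and Kif23 farthest.

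Replication and mitosis genes lay near 0 between replicates and slightly above it with IL-21. Of 56 measured, 22 were higher in both pairs, 10 were lower in both and 24 had mixed signs, with medians of 0.01 and 0.12. With arrays centred or unscaled, 24 were higher in both relative to the median probe set. The groups did not overlap for 16 on the higher side and 8 on the lower side, where 15.3% and 18.3% of all genes did not. Ube2c, the ubiquitin-conjugating enzyme of the anaphase-promoting complex, gave 40.4 and 27.4 without IL-21 and 88.9 and 50.1 with it. Prim1, the catalytic subunit of primase, stood at 50.4 and 38.0 without IL-21 and at 70.6 and 79.0 with it. Kif23, a kinesin of the midbody, had 158 and 126 without IL-21 and 231 and 183 with it. In each of these 3 the arrays with IL-21 were above both others. On the other side, Ccna2, cyclin A2, differed by -0.26 and -0.46, and Mki67, the proliferation marker Ki-67, by -0.28 and -0.20, though a dim second Mki67 probe set was higher, by 0.56 and 0.36; these were chosen after their values were seen.

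CDK inhibitors, G1 cyclins and p53 targets had no common direction beside Cdkn1a. Of 17 measured, 6 were higher in both pairs and 7 were lower in both, with medians of -0.03 and -0.03. Ccnd2, cyclin D2, gave 434 and 246 without IL-21 and 517 and 559 with it, and most of its difference came from replicate 2, with 0.25 in pair 1 and 1.19 in pair 2. Gadd45g, a stress sensor gene, was higher in both pairs, by 0.57 and 0.80, but gave 26.6 and 110 without IL-21 and 39.6 and 192 with it, so that the replicates were farther apart than the treatments.

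Glycolysis and hypoxia-responsive genes leaned to the lower side. Of 29 measured, 17 were lower in both pairs and 4 were higher in both, with medians of -0.08 and -0.16. The groups did not overlap for 13 on the lower side and 2 on the higher side, where 18.3% and 15.3% of all genes did not. Under either other scaling 16 were lower in both pairs relative to the median probe set. The largest group differences with the same sign in both pairs included those of hypoxia-responsive genes. Bnip3, a mitophagy receptor gene induced by HIF-1, gave 200 and 226 without IL-21 and 174 and 119 with it. Ndrg1, another HIF-1 target, had 199 and 237 without IL-21 and 169 and 134 with it. Pfkfb3, which makes the activator of phosphofructokinase, differed by -0.80 and -0.21. Ldha and Pkm, glycolytic enzymes chosen after their values were seen, differed by 0.11 and -0.10 and by -0.06 and -0.06, and do not stand for the other enzymes.

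Apoptosis and survival genes had a like distribution. Of 25 measured, 13 were lower in both pairs under each scaling relative to the median probe set, and 4 were higher in both, with medians of -0.07 and -0.20. Aifm1, the mitochondrial apoptosis-inducing factor, stood at 445 and 486 without IL-21 and at 313 and 307 with it, with the groups apart and the replicates close. Tnfaip3, the NF-kB inhibitor A20, differed by -0.48 and -0.68, and Bad, a BH3-only protein gene, by 0.74 in both pairs. A second Bad probe set of like signal was lower in both, by -0.10 and -0.42. Of 28 endoplasmic reticulum chaperone and stress response genes, 13 were lower in both pairs and 6 were higher in both. Over all genes tested these shares were 31.1% and 27%. Trib3 and Ddit3, targets of the stress factor ATF4, differed by -0.74 and -0.88 and by -0.49 and -0.69. Hsp90aa1, a cytosolic chaperone, gave 1529 and 1037 without IL-21 and 2010 and 2624 with it.

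Respiratory chain and ATP synthase genes were divided, with 19 of 48 lower in both pairs, 9 higher in both and medians of -0.07 and -0.03. Over all genes tested, 31.1% were lower in both pairs and 27% were higher in both. Ndufs3, a subunit of complex I, gave 550 and 517 without IL-21 and 423 and 391 with it. Of 23 cholesterol and fatty acid synthesis genes, 10 were lower in both pairs and 5 were higher in both. Scd2, a fatty acid desaturase, gave 1366 and 1680 without IL-21 and 992 and 1088 with it, but a second Scd2 probe set was higher in both pairs, by 0.14 and 0.17. Fasn, fatty acid synthase, was higher in both pairs, by 0.26 and 0.73. Of 43 MYC target and ribosome biogenesis genes, 12 were higher in both pairs and 13 were lower in both. These shares, 27.9% and 30.2%, were near those of all genes tested. Ddx21, a nucleolar helicase, had 226 and 206 without IL-21 and 347 and 396 with it, and Ranbp1, a partner of the transport GTPase RAN, had 351 and 310 without IL-21 and 505 and 442 with it. Of 25 ribosomal protein genes, 4 were higher in both pairs, 7 were lower in both and 14 had mixed signs. Rps19, a protein of the small subunit, gave 3759 and 2863 without IL-21 and 1961 and 2158 with it.

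Of the 26 lists with 5 or more measured genes, 18 had medians of the same sign in both pairs. Relative to the median probe set this number was 18, and 16 with arrays centred on their medians or left unscaled. Splicing and chromatin lists, which hold Sf3b1 and Smarcc1, did not share the size of these genes' differences. Of 37 splicing genes 17 were higher in both pairs and 10 were lower in both, with medians of 0.05 and 0.04. Of 35 chromatin genes 12 were higher in both and 9 were lower in both, with medians of 0.01 and 0.05. For all genes tested, 27% were higher in both and 31.1% lower in both. Hnrnpu, a nuclear RNA-binding protein gene, was lower by -0.41 and -0.70, and Arid1a, another BAF subunit, was higher by 0.38 and 0.33. A dimmer Arid1a probe set had mixed signs, -0.31 and 0.13. Of 31 redox genes, which include Sod1, 16 had mixed signs, 8 were higher in both pairs and 7 were lower in both.

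**Figure D4:**
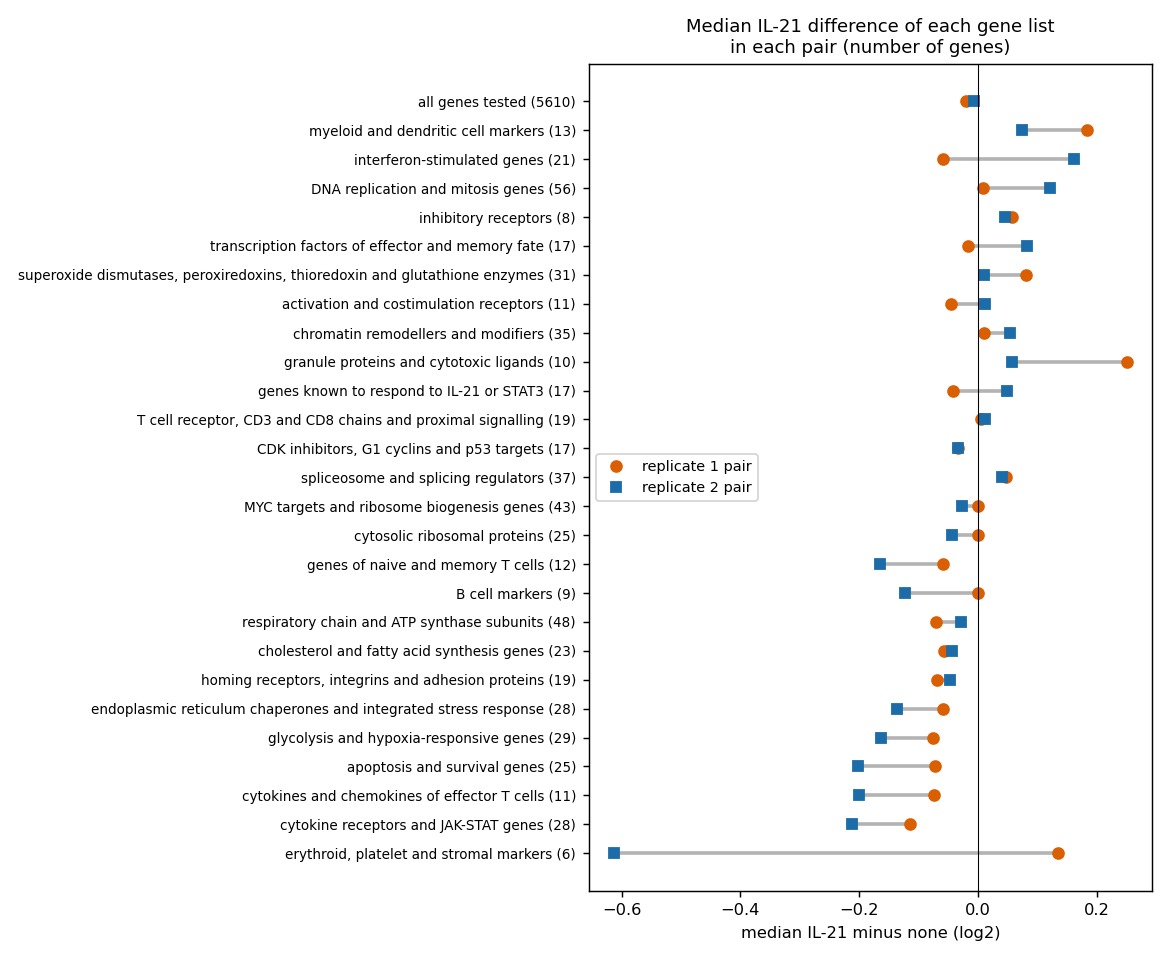
Median IL-21 difference (x axis, log2) of each gene list with 5 or more measured genes, with the replicate 1 pair as circles, the replicate 2 pair as squares and all 5610 genes in the top line. Both medians lie below 0 for the cytokine receptor, apoptosis, glycolysis and effector cytokine lists. They also do for the naive and memory, stress response, respiratory chain, lipid synthesis, homing and CDK inhibitor lists, and for all genes tested (-0.02 and -0.01). The replicate 2 median of the 6 erythroid and stromal markers is farthest from 0, at -0.61.

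Transcription factors and receptors that mark T cell fate gave small counts. Of 17 transcription factor genes of effector and memory fate, 5 were higher in both pairs and 6 were lower in both. Id2, which supports effector cells, gave 95.9 and 145 without IL-21 and 137 and 240 with it. Of 12 genes of naive and memory cells, 2 were higher in both and 5 were lower in both, among them Ccr7, the lymph node homing receptor, with 289 and 255 without IL-21 and 193 and 217 with it. Of 11 activation receptors, 4 were higher and 4 lower in both pairs. Tnfrsf18 and Tnfrsf4, the costimulatory receptors GITR and OX40, differed by -0.21 and -0.54 and by -0.13 and -0.58, and Klrk1, the activating receptor NKG2D, by 0.26 and 0.62. Of 8 inhibitory receptors, 3 were higher in both pairs and 2 were lower in both, Ctla4 by -0.66 and -0.10 and Lag3 by -0.27 and -0.37 being the lower ones. Of 19 homing and adhesion genes, 6 were higher and 8 lower in both, and Itgb1, the integrin beta 1 chain, gave 341 and 237 without IL-21 and 614 and 368 with it. A second, dimmer Itgb1 probe set had mixed signs, 0.02 and -0.11. Of 19 genes of the T cell receptor, the CD3 and CD8 chains and their proximal signalling, 7 were higher in both pairs and 5 were lower in both, Cd3e among the latter at -0.22 and -0.29.

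Markers of other cell types were given by their whole lists. Of 9 measured B cell markers, 0 were higher in both pairs and 2 were lower in both, Cd74 and Cd37, and their summed signal was 972 and 605 without IL-21 and 884 and 668 with it. The defining B cell genes Cd79a and Ms4a1 had signals of 12.9 to 34.4 and 15.3 to 27.7. They were picked from the list, and most of its summed signal came from members not named here. Of 13 myeloid and dendritic cell markers, 7 were higher in both pairs and 4 were lower in both, with summed signals of 536 and 497 without IL-21 and 573 and 493 with it. Only 2 NK cell markers passed the signal filter, Klrd1 and Klrc1, which activated CD8 T cells also express, with summed signals of 54.5 and 175 without IL-21 and 70.0 and 343 with it. Of 6 erythroid and stromal markers, 1 was higher in both and 2 were lower in both, with summed signals of 322 and 301 without IL-21 and 326 and 243 with it. Much of that sum came from 1 Col1a2 probe set, with 195 and 146 without IL-21 and 204 and 155 with it. The other Col1a2 probe set lay below the signal filter. For CD4 and regulatory T cells, Cd4 and Nrp1 passed the filter, with summed signals of 50.2 and 30.3 without IL-21 and 36.9 and 26.1 with it. The summed B cell, myeloid and CD4 signals were lower in replicate 2 in both treatments and the NK signal higher, and the part of these cells in the differences above was not tested.

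At 72 h the single array with IL-21 can be set beside these values, though time and IL-21 cannot be told apart there. Gzmb had 3717, Cd8a 506, Cd8b1 1093 and Klrd1 992 at 72 h. Sod1 had 326 and Cdkn1a 160. Ltb had 1858, above all 4 arrays at 48 h, while Lta had 11.2, below all of them.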

How the data were processed

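Total RNA from the cultures was labelled with biotin and hybridised to Affymetrix MG-U74Av2 arrays, 1 array a sample. The deposited values are linear intensities, made with MAS5 per the submitters' processing notes, of a version and scaling target not given in the sources used here. With controls left out, deposited intensities had different trimmed means, so no common target is evident in them. How the submitters scaled them is not known. MAS5 signals are noisy near background.

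Of 12488 probe sets, 66 controls were left out of the scaling. Of the other 12422, 10833 had 1 gene name, 396 had several and were left unnamed, and 1193 had none. The names came from the platform's probe table, updated through Entrez identifiers to the GRCm38.p6 gene table (10817 matched). Before log2, 1.53 was added as an offset (the 10th percentile over all arrays), which understates differences of dim probe sets. The 5 arrays were quantile normalised, and probe sets with a mean log2 value above the 40th percentile were kept, which left 7453. Printed signals are 2 to the power of the normalised value, offset included.

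Differences were tested two-sided with limma 3.58.1 in R 4.3.3, with means for 3 groups over the 5 arrays, which leaves 2 residual degrees of freedom. Variances were moderated by empirical Bayes on a trend, and p-values adjusted by Benjamini-Hochberg over all 7453. An exact permutation test of 2 against 2 arrays cannot go below p = 0.333, so none was used. The number of arrays limits the precision. The procedure was tested on simulated data with independent noise on each array. In the data the deviations of same-numbered arrays correlated at 0.36, a feature that the simulation does not cover.

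The rule for named genes took 12 genes always; the 15 on either side with the largest smaller-of-the-pairs difference among probe sets with 1 gene name and a mean signal above the median; 5 on either side without that limit; 5 with opposite signs on either order; and up to 4 of each gene list. The 28 lists describe genes by 1 probe set each. The members and the lists were chosen with earlier results of these data known. Alternatives were the offset, scaling, filter, arrays normalised together, variance trend, size limit, kind of correlation, replicate number as a block, and each array left out in turn. Promoter sequences came from RefSeq, GRCm38.p6.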

Additional observations from a re-analysis of the deposited data

Results flagged for a closer look

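The labelled control transcripts added to each hybridisation are outside the comparisons of genes, and their signal before scaling was higher with IL-21. The median ratio over the 9 probe sets was 1.65 in pair 1 and 1.58 in pair 2, and all 9 were higher in each pair. Over the 7453 probe sets tested, the median ratio before scaling was 1.40 in pair 1 and 1.56 in pair 2.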

How the results depend on the processing

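In limma, 0 probe sets passed with an offset of 16, centred arrays, no filter, a filter at the 60th percentile, the 4 arrays at 48 h alone, no variance trend, and each array left out in turn (0 to 0 passed, 219 to 343 with an unadjusted p under 0.05). With unscaled arrays 696 passed, all higher, as the median difference was then 0.57. The replicate number as a block in a fit to the 4 arrays called 12 probe sets, 10 higher and 2 lower, with 820 at an unadjusted p under 0.05; among them were Gzmb (standard error 0.08), Cd8a, Sod1, Ddx6, Otud4, Sf3b1, Prp2 and Wnk1. That fit leaves 1 residual degree of freedom. The deviations of same-numbered arrays correlated at 0.36, but the 2 pairs share only a number in the labels.

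Counts of probe sets 2-fold apart in both pairs depended on how dim probe sets were treated. Higher in both were 6 with an offset of 16, 207 unscaled, 114 unfiltered, 8 above the 60th percentile and 105 at 1.5-fold. Lower in both were 2, 0, 89, 1 and 60 under the same settings. Opposite in sign were 3 with an offset of 16, 158 unfiltered, 0 above the 60th percentile and 100 at 1.5-fold. The correlation of the pair differences was 0.20 with an offset of 16, 0.065 unfiltered, 0.30 above the 60th percentile and 0.18 as Spearman's rho. Lists with medians of the same sign in both pairs numbered 18, or 8 with centred arrays, where all probe sets tested had medians of -0.066 and 0.13 in the pairs; relative to these medians 16 had the same sign. Leaving out 1 array leaves 1 pair, so the pair counts have no such value.

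Of single genes, Actn1 (0.025) and Tgif2 (0.00978) turned sign with centred arrays, and H2-T18 (-0.018) with unscaled arrays relative to the median probe set. With each 48 h array left out in turn the group difference changed sign for 25 of 110 genes recomputed: Actn1 (-0.37 to 0.30), Arih1 (-0.99 to 0.19), Atg4b (-0.39 to 0.59), Cse1l (-0.74 to 0.30), Gadd45g (-0.45 to 1.83), H2-T18 (-0.88 to 0.90), Iigp1 (-1.41 to 1.80), Il7r (-0.26 to 1.12), Isg15 (-3.19 to 0.97), Jak3 (-0.50 to 0.28), Klrd1 (-0.37 to 2.07), Ldha (-0.050 to 0.065), Myc (-0.066 to 0.31), Nfil3 (-1.31 to 0.074), Pdha1 (-0.51 to 0.77), Prf1 (-0.86 to 0.92), Sfn (-0.39 to 0.39), Sft2d1 (-0.48 to 0.56), Socs3 (-1.20 to 0.52), Sod2 (-0.084 to 0.14), Srgn (-0.050 to 0.67), Stat3 (-0.39 to 0.018), Tgif2 (-0.52 to 0.43), Trip13 (-0.63 to 0.50) and Xcl1 (-1.13 to 0.49). A further 32 kept their sign but moved by over 1.5 times, among them Gzmb (0.17 to 1.43), Cd8b1 (0.18 to 0.90), Cd74 (-1.28 to -0.020), Lta (-1.24 to -0.17) and Il2ra (-1.01 to -0.22). Where an array was left out, the lone array of its group was assumed to vary like the other groups. The groups then also hold unequal replicate numbers, so part of the replicate difference enters the group difference. A sign could thus turn where both pairs had the same sign, as for Klrd1, Gadd45g, Il7r, Stat3 and Socs3. Beside the construction of each setting, the cause was not tested.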

Other observations

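Some genes outside the rule, chosen after their values were seen, differed by replicate number and hardly with IL-21. Bcl3, a partner of NF-kB p50, had normalised signals of 10.2 and 131 without IL-21 and 9.86 and 135 with it on the replicate 1 and 2 arrays. Satb1, a chromatin organiser of T cells, gave 224 and 847 without IL-21 and 238 and 865 with it. Il12rb2, the signalling chain of the IL-12 receptor, gave 148 and 424 without IL-21 and 124 and 444 with it. In all 3 the array of replicate 2 was higher in both treatments.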
